A study of Mus musculus with 2 samples.

Results

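The genes described here encode the splicing machinery and the abundant proteins that bind nuclear RNA: SR proteins, hnRNP proteins, the SF3 and U2AF factors, the snRNP proteins and the PRPF proteins. They were chosen by gene symbol alone, as all genes whose symbol begins with Srsf or Sfrs and a digit, Hnrnp or Hnrp, Sf3a or Sf3b, Snrp, U2af, or Prpf and a digit. The rule found 66 of the 14678 genes in the deposited table, namely 12 SR, 19 hnRNP, 11 SF3 and U2AF, 11 snRNP and 13 PRPF genes. As a check of the label, the GO column of the table assigned 52 of the 66 to splicing, the spliceosome or a ribonucleoprotein, and 6 carried no GO term. Hnrnpa1 and Snrpn, whose symbols fit the rule, were not among the 66 genes that it found, so they were not analysed here.

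The mouse uterus at gestation day 2.5 was measured by digital gene expression (DGE), in which sequence tags are counted for each gene. One question of the study was which uterine genes change when VEGF, the main growth factor of blood vessels, is repressed. All females carried tet operator sites in both Vegf alleles (VEGF tetO/tetO, 4 operator copies in the promoter). They also carried a tetR-Krab repressor transgene (genotype beta-AKtg/wt) that the beta-actin promoter drives in all cells. The females were mated with VEGF tetO/tetO males. The Dox+ group ate doxycycline chow, which keeps the repressor off, and the labels call it VEGF-normal (wild type), although it carried the same alleles. The Dox- group ate regular chow from 3 to 4 weeks of age, so that VEGF was repressed. The mice were littermates of 9 to 10 weeks. A difference in VEGF and a difference in doxycycline intake cannot be told apart in this design, and the repression was not limited to the uterus. RNA of 3 uteri was pooled per group, and 1 library was made of each pool, so no difference below has a replicate library. For VEGF itself, the paper reports lower mRNA by qPCR and lower protein by Western blot in Dox- uteri.

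Introns are removed by the spliceosome, which assembles on each intron from small nuclear ribonucleoproteins (snRNPs) named U1, U2, U4, U5 and U6 and from many other proteins. SR proteins bind exons and mostly promote the use of nearby splice sites, whereas hnRNP proteins coat nascent transcripts and often repress it. Most of these genes are expressed in nearly every cell type, and their relative levels are known to influence which exons are kept.

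The Dox+ library held 4437506 counted tags and the Dox- library 4218459, or 74.1% and 72.2% of the clean tags. Vegfa itself had 247 copies in Dox+ and 125 in Dox-, in the direction of the labels. A copy is 1 counted tag. Ratios are copies per clean tag in Dox- over Dox+, and their 95% intervals are exact Clopper-Pearson intervals that cover counting error only. The test of Audic and Claverie with Benjamini-Hochberg adjustment (FDR) over all genes compares the 2 libraries, not the conditions. A gene was called where the FDR was below 0.05, the fold at least 1.5 and the copies of both libraries summed to at least 200. In RNA of a whole organ, fewer cells of a type and less RNA per cell cannot be told apart.

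Few splicing genes were called. Of 66 genes, 60 summed to 200 copies or more, and of these, 3 were called higher and 3 lower in Dox-. Over all 6547 genes that passed the same filter, 15.2% were called higher and 14.7% lower. The higher genes were Srsf11, Srsf2 and Hnrnph1, and the lower genes were Sf3b2, Srsf5 and Snrpf. The 60 log2 ratios ran from -0.92 to 0.92 with a median of 0.16, beside a median of 0.03 over all genes tested. Of the 60, 40 lay above 0 and 20 below, beside 3410 above and 3137 below of the 6547 genes tested. When a coefficient of variation of 0.2 between libraries was assumed in edgeR, none of the 6 calls remained. Over all 6547 genes, 147 higher and 174 lower were called at that setting.

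**Figure D1:**
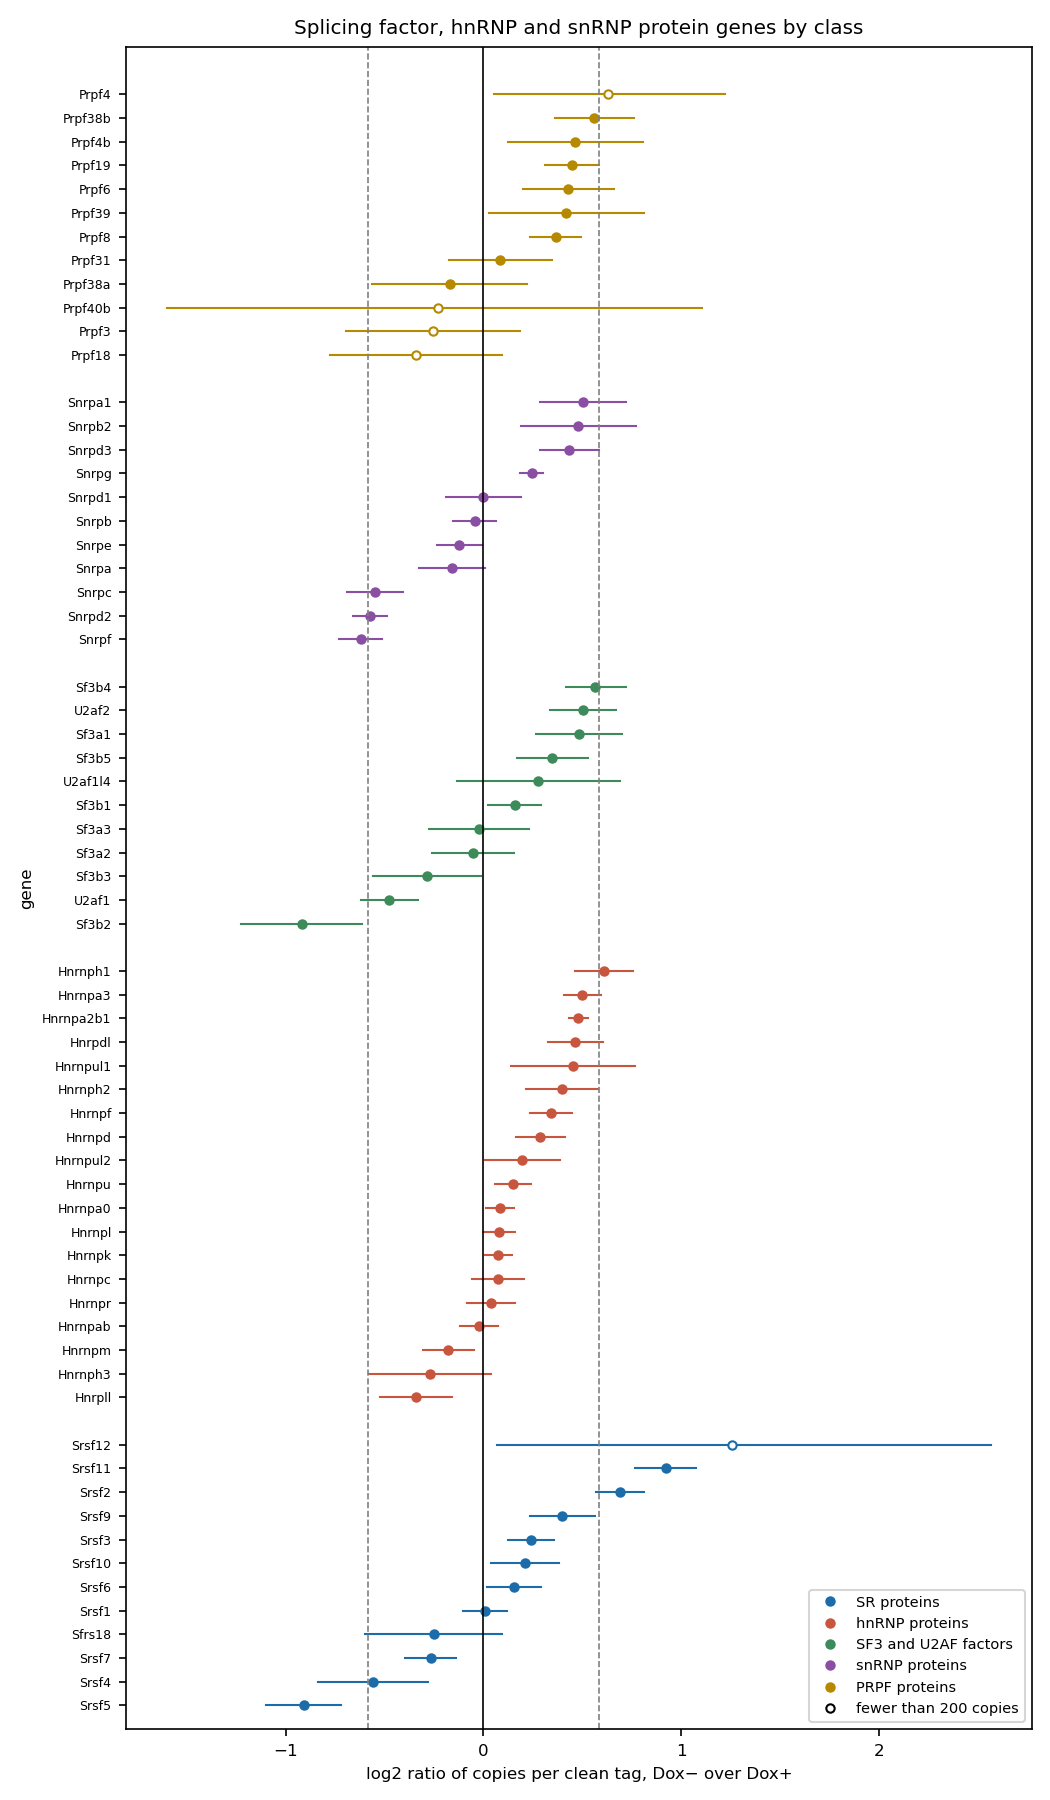
Log2 ratio of copies per clean tag, Dox- over Dox+, for the genes by class, with 95% counting intervals as lines; open circles have fewer than 200 combined copies and dashed lines mark 1.5-fold. The 3 genes called higher and 3 called lower stand past the dashed lines, as do Srsf12 and Prpf4 with few copies, and 24 of the 60 genes with enough copies lie within 1.2-fold.

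At an FDR below 0.05 without a minimum fold, 29 of the 60 genes were higher in Dox- and 10 lower, where the background over all genes was 31.6% higher and 29.1% lower. The splicing genes have more copies than most genes, with a median of 1529 combined copies against 503, and a smaller fold passes the test at more copies. Among genes with at least 1000 combined copies, 22 of 40 splicing genes were higher and 8 lower, beside 40.5% and 36.6% of the 1598 genes of that depth. With the minimum fold, 5 of those 40 were called in either direction, beside 26.5%. The median distance from a ratio of 1 was 1.27-fold for the splicing genes and 1.30-fold for all genes tested. Within 1.2-fold lay 40.0% of the splicing genes and 36.6% of all genes.

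**Figure D2:**
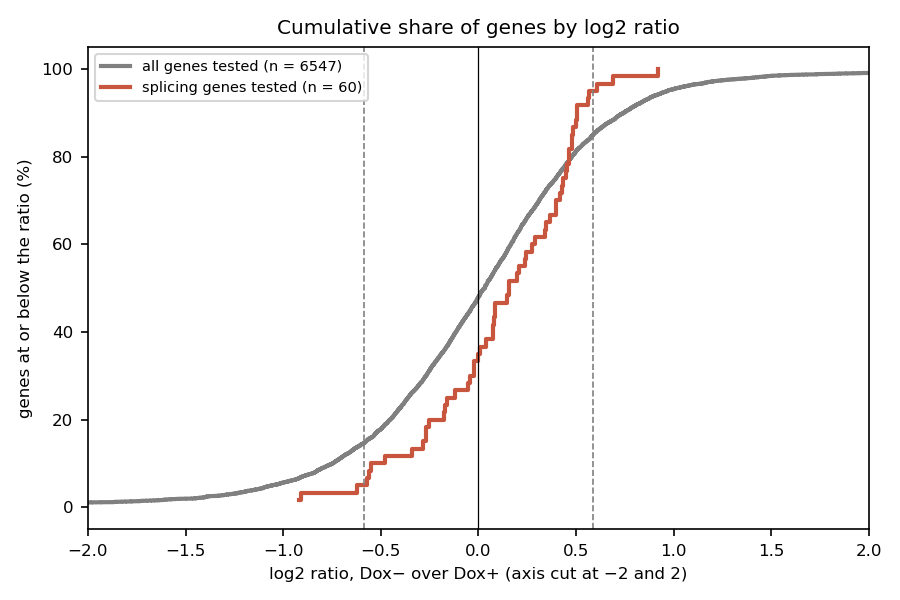
Cumulative share of genes (%) by log2 ratio, Dox- over Dox+, for the 60 splicing genes and all 6547 genes tested; dashed lines mark 1.5-fold. The curve of the splicing genes lies to the right of the other curve around 0 (median 0.16 against 0.03) and has short tails, ending at -0.92 and 0.92.

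Together the 66 genes held 60469 copies in Dox+ and 65394 in Dox-, which was 1.36% and 1.55% of the counted tags. The summed log2 ratio was 0.15 (95% interval 0.13 to 0.16). By class, the sums differed. The hnRNP genes went from 29274 to 33490 copies (log2 0.23), of which Hnrnpa2b1 alone held 6077 in Dox+ and 8270 in Dox-. The PRPF genes went from 3189 to 3978 (0.35) and the SR genes from 7936 to 8722 (0.17). The SF3 and U2AF genes went from 4987 to 5273 copies (log2 0.11). The sum of the snRNP protein genes went the other way, from 15083 to 13931 copies (log2 -0.08, interval -0.11 to -0.05). Within it, Snrpd2 went from 2768 to 1819 copies and Snrpf from 1815 to 1153. Of the 11 snRNP genes, 5 had a log2 ratio above 0 and 6 below. The median log2 ratio per class was 0.42 for the PRPF genes, 0.16 for SF3 and U2AF, 0.15 for SR and hnRNP, and -0.04 for the snRNP genes.

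Among the SR proteins, 2 genes were called higher and 1 lower of the 11 with enough copies, and 5 were higher and 3 lower at an FDR below 0.05 without a minimum fold. Over all genes tested the shares were 15.2% and 14.7% called, and 31.6% and 29.1% without a minimum fold. Srsf11, which encodes an SR-related protein that binds U2AF, lies at chr3:157673437-157699603 on the minus strand (NCBIM37). It had 539 copies in Dox+ and 997 in Dox-. The Dox- library was 1.89-fold higher (interval 1.70 to 2.11), with an FDR of 9.14e-33 by the Audic-Claverie test, and this was the highest ratio of the 60 genes. Srsf2, which encodes SC35, an activator bound to exonic enhancers and a marker of nuclear speckles, had 900 and 1418 copies. It was 1.61-fold higher in Dox- (1.48 to 1.76). Its gene, at chr11:116711215-116714408 on the minus strand, is overlapped on the other strand by Mfsd11 for 655 bases and by 1110005A03Rik for 3194 bases, and whether the copies were counted by strand is not stated.

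Srsf5 moved the opposite way. It belongs with Srsf4 and Srsf6 to a branch of SR proteins with similar RNA-binding domains, and it lies at chr12:82046491-82051494 on the plus strand. It had 667 copies in Dox+ and 347 in Dox-, a 1.88-fold lower level in Dox- (1.65 to 2.14). Srsf4 had 273 and 181 copies (log2 -0.56) and fell just short of the fold threshold, which it passed under median-of-ratios scaling, another way to set the library sizes. Srsf6 had 829 and 901 copies (log2 0.15), and its interval was apart from those of both relatives.

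Srsf3 and Srsf7, close relatives that also take part in mRNA export, differed as well. Srsf3 had 1115 and 1286 copies (log2 0.24, interval 0.12 to 0.36), and Srsf7 had 1085 and 881 (log2 -0.27, interval -0.40 to -0.14). Srsf1, the founding SR protein, was level between the libraries with 1307 and 1285 copies (log2 0.01), while its closest relative Srsf9 had 532 and 685 (log2 0.40). Their intervals did not overlap. Srsf10, a dephosphorylation-activated splicing repressor, had 524 and 592 copies (log2 0.21), and Sfrs18, an SR-related gene, had 156 and 128 (log2 -0.25, FDR 0.241 by the Audic-Claverie test). Srsf12, the relative of Srsf10, had only 9 and 21 copies and was below the copy number filter. Of the 5 pairs of relatives in this family with enough copies, 4 had intervals that were apart. The pairs among Srsf4, Srsf5 and Srsf6 share genes, and the share for pairs of unrelated genes was not computed.

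The 4 called genes with a single transcription start in the RefSeq table, or starts 2 bases apart, are shown with the 150 bases before that start (GRCm38.p6, 5′ to 3′ on the gene's strand), so that genes called in opposite directions can be compared by eye. Capitals mark matches on either strand to the CCAAT box (CCAAT or ATTGG), the GC box (GGGCGG or CCGCCC), the ETS core (CCGGAA or TTCCGG), the CRE core (TGACGT or ACGTCA), the E-box (CACGTG) and the TATA box (TATAAA or TTTATA). In Srsf5 the last GC box and the last ETS core share 1 base.
Srsf2, called higher, chr11:116853095-116853244, minus strand: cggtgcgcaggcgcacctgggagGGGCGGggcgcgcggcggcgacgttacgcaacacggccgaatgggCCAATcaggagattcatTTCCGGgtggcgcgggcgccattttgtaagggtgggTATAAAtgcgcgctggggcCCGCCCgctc
Srsf5, called lower, chr12:80945349-80945498, plus strand: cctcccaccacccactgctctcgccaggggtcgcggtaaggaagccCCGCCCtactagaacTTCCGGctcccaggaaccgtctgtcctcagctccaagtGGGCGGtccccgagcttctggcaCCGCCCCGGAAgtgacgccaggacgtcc
Sf3b2, called lower, chr19:5295458-5295607, minus strand: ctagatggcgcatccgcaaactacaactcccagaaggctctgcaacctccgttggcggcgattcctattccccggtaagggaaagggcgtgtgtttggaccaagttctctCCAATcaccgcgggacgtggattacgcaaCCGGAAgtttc
Snrpf, called lower, chr10:93589659-93589808, minus strand: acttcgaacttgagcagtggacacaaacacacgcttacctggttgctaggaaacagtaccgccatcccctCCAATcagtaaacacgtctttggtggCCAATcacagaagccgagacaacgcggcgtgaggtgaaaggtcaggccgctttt

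Srsf2 carried a CCAAT box, an ETS core, a TATA box and GC boxes, and Srsf5 carried GC boxes and ETS cores but none of the CCAAT letters in this window. Snrpf carried a pair of CCAAT boxes and no other motif of the list, and Sf3b2 had 1 CCAAT box and 1 ETS core. Over windows from 250 bases before to 50 after the start, 56 of the 66 genes matched a RefSeq promoter. An ETS core was in 28 of the 56, in 31.2% of the promoters of genes tested and in 15.2% of all 27025 promoters. A CRE core was in 28.6%, 12.6% and 7.64% in the same order, and a CCAAT box in 48.2%, 38.0% and 37.9%. GC boxes were in 66.1%, 69.3% and 35.9%, E-boxes in 14.3%, 10.5% and 7.24%, and TATA boxes in 10.7%, 6.63% and 14.2%. These promoters are rich in CpG, with a median of 25 CpG per window against 22 in the genes tested and 7 in all promoters. The shares are descriptions of letters, and no binding was measured.

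Of the 19 hnRNP genes, all had enough copies, 1 was called higher and none lower. The background shares were 15.2% and 14.7%. Without a minimum fold, 10 were higher and 2 lower at an FDR below 0.05, beside 31.6% and 29.1%. Hnrnph1, whose protein binds runs of G, lies at chr11:50190492-50200030 on the plus strand. It had 630 copies in Dox+ and 939 in Dox-, or 1.53-fold higher (1.38 to 1.69), so its interval reached below the threshold of 1.5, and it was not called under median-of-ratios scaling. Hnrnph2 had 450 and 579 copies (log2 0.40) and Hnrnpf 1322 and 1635 (log2 0.34). Hnrnph3, a shorter relative, had 200 and 162 copies (log2 -0.27, interval -0.58 to 0.04), and its interval was apart from those of Hnrnph1, Hnrnph2 and Hnrnpf. The G-run binders were therefore higher in Dox- with the exception of Hnrnph3, whose own interval included 0. Hnrnph3 is overlapped on the other strand by Rufy2 for 4079 bases, and whether the copies were counted by strand is not stated. Other genes have such overlaps too, among them Hnrnpab with Agxt2l2 for 5620 bases and Prpf31 with Gm15927 for 10373 bases.

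Within the hnRNP A/B family, 1 pair of genes had larger ratios and 1 pair had ratios near 1. Hnrnpa2b1, which encodes a repressor of splicing that also guides RNA transport, had 6077 copies in Dox+ and 8270 in Dox-. It was 1.39-fold higher (1.35 to 1.44), below the threshold, and its tight interval came from the largest copy number of the 66 genes. Hnrnpa3 had 1589 and 2194 copies, 1.41-fold higher (1.33 to 1.51). Hnrnpa0, a binder of AU-rich elements, had 3281 and 3398 copies (log2 0.09), and Hnrnpab had 1813 and 1743 (log2 -0.02). The intervals of Hnrnpa2b1 and Hnrnpa3 were apart from those of Hnrnpa0 and Hnrnpab. The transcript of Hnrnpa3 is at least 95% identical over 100 bases or more to those of 3 other annotated genes, so tags of these could be mixed or have been dropped as ambiguous. The same holds for Hnrnpk, Sf3b4 and Srsf3 with 1 other gene each, and Hnrnpm shares 1149 bases with March2 on its own strand.

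Other hnRNP genes kept nearly the same level. Hnrnpk, a KH-domain protein that binds runs of C, had 3600 and 3707 copies (log2 0.08), Hnrnpl, a binder of CA repeats, had 2457 and 2537 (log2 0.08), and Hnrnpc, a binder of U tracts, had 925 and 952 (log2 0.08). Hnrnpr, an RNA-binding protein related to Syncrip, had 1084 and 1088 copies (log2 0.04). Hnrpll, the relative of Hnrnpl that controls exons of CD45 in lymphocytes, had 570 copies in Dox+ and 439 in Dox- (log2 -0.34), and its interval was apart from that of Hnrnpl. Hnrnpm, a binder of GU-rich sequence, was the other hnRNP gene lower at an FDR below 0.05, with 1044 and 902 copies (log2 -0.18). Hnrnpd, the decay factor AUF1, had 1000 and 1193 copies (log2 0.29) and its relative Hnrpdl 749 and 1010 (log2 0.47). In the hnRNP U group, whose founding member is a scaffold protein of the nucleus, Hnrnpu had 1891 and 2047 copies (log2 0.15), Hnrnpul1 149 and 199 (log2 0.45) and Hnrnpul2 443 and 496 (log2 0.20). The intervals of these 3 overlapped.

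The snRNP protein genes had ratios on both sides of 1. Of the 11, none was called higher and 1 lower, beside 15.2% and 14.7% of all genes tested. The Sm ring that holds the RNA of the U1, U2, U4 and U5 snRNPs is built from 7 proteins, with 1 of each in a ring. The 7 genes summed to 12977 copies in Dox+ and 12058 in Dox- (log2 -0.07, interval -0.11 to -0.04). The single genes did not share this small change. Snrpf had 1815 and 1153 copies, 1.54-fold lower in Dox- (1.43 to 1.66), and was the only snRNP gene called, a call that was lost when the sum of the gene counts was the library size. It lies at chr10:93045774-93052451 on the minus strand and is overlapped on the other strand by Ccdc38 for 1299 bases and by 4933408J17Rik for 294 bases.

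Snrpd2, for SmD2, was the nearest gene outside the threshold, with 2768 copies in Dox+ and 1819 in Dox-, 1.49-fold lower (1.40 to 1.58), and it was called under TMM and median-of-ratios scaling. Its transcript is at least 95% identical over 100 bases or more to those of 3 other annotated genes. Snrpd3, for SmD3, went the other way, from 656 to 866 copies (log2 0.44, interval 0.29 to 0.58), as did Snrpg with 4506 and 5212 (log2 0.24, interval 0.19 to 0.30). Snrpd1 had 467 and 456 copies, a log2 ratio of 0.00 (interval -0.19 to 0.19). Snrpb had 1418 and 1343 copies (log2 -0.04) and Snrpe 1347 and 1209 (log2 -0.12), and neither passed the test. Of the 7 ring genes, therefore, 2 were lower, 2 higher and 3 did not pass an FDR of 0.05. Over all genes tested, 31.6% were higher and 29.1% lower at that FDR.

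Snrpa and Snrpc, for proteins found in the U1 snRNP alone, summed to 1632 copies in Dox+ and 1221 in Dox- (log2 -0.38, interval -0.49 to -0.28). Snrpc, which stabilises pairing of U1 with the 5′ splice site, accounted for most of the difference, with 997 and 666 copies (log2 -0.55), while Snrpa had 635 and 555 (log2 -0.16, interval -0.33 to 0.01). Snrnp70, the remaining U1-specific gene and outside the symbol rule, was level with 1041 and 1017 copies (log2 0.00), and with it the sum went from 2673 to 2238 (log2 -0.22, interval -0.30 to -0.14). Snrpa1 and Snrpb2, for proteins found in the U2 snRNP alone, summed to 474 and 652 copies (log2 0.49, interval 0.32 to 0.67). Both were higher at an FDR below 0.05, Snrpa1 from 302 to 418 (log2 0.50) and Snrpb2 from 172 to 234 (log2 0.48). Snrpa and Snrpb2 encode closely related proteins, and their intervals did not overlap. None of these genes reached 1.5-fold, and Snrpc was the only one of the U1 genes lower at an FDR below 0.05.

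**Figure D3:**
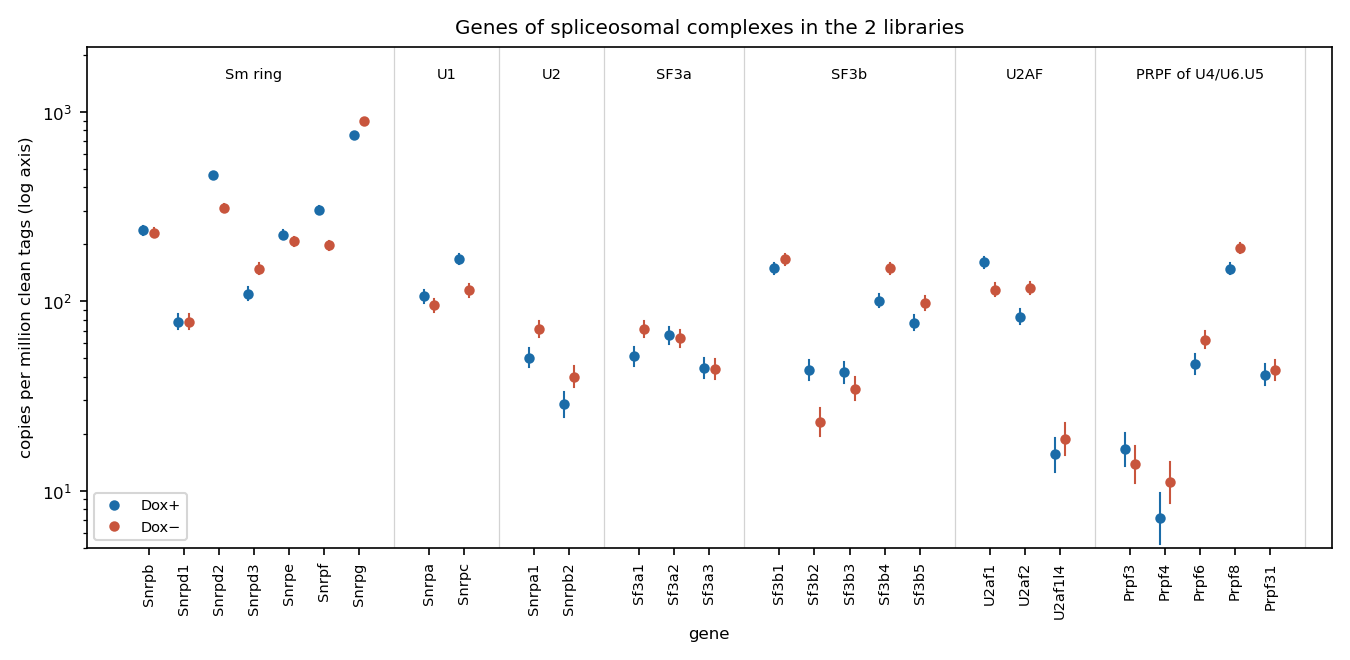
TPM, or copies per 1000000 clean tags (log axis), in the Dox+ and Dox- libraries for genes of the Sm ring, U1, U2, SF3a, SF3b, U2AF and the PRPF proteins of the U4/U6.U5 tri-snRNP, with 95% Poisson counting intervals as vertical lines. Snrpf, Snrpd2, Snrpc, Sf3b2 and U2af1 are lower in Dox-, whereas Snrpa1, Snrpb2, Sf3b4 and U2af2 are higher; values are not corrected for transcript length.

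SF3a and SF3b are the parts of the U2 snRNP that clamp the branch site of the intron. Sf3b2, at chr19:5273923-5295455 on the minus strand, had 261 copies in Dox+ and 135 in Dox-. It was 1.89-fold lower (1.53 to 2.34), the lowest ratio of the 60 genes and the only call among the 11 SF3 and U2AF genes, of which 5 were higher and 2 lower at an FDR below 0.05 without a minimum fold (31.6% and 29.1% over all genes). Sf3b4, whose protein binds the product of Sf3b2 directly, was on the other side, with 602 and 871 copies, 1.48-fold higher (1.33 to 1.65) and just outside the threshold. With the sum of the gene counts as library size, Sf3b4 and Prpf38b were called. Sf3b5, the smallest subunit, had 461 and 573 copies (log2 0.35), and Sf3b1, the large subunit that contacts the branch site, had 893 and 973 (log2 0.16). Sf3b3 had 252 and 202 copies (log2 -0.28, FDR 0.0789 by the Audic-Claverie test). The 5 SF3b genes together had 2469 and 2754 copies (log2 0.19, interval 0.11 to 0.27), a sum over subunits with ratios on both sides of 1. Phf5a, a further SF3b subunit outside the symbol rule, was called lower with 162 and 103 copies (1.54-fold lower), and with it the sum was 2631 and 2857 (log2 0.15, interval 0.08 to 0.23). Phf5a, Snrnp70 and the U5 genes given with the PRPF proteins were added after their values were seen.

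Of the SF3a genes, Sf3a1 had 306 and 418 copies (log2 0.48) and passed an FDR of 0.05. Sf3a2 had 395 and 372 copies (log2 -0.05) and Sf3a3 had 267 and 257 (log2 -0.02), and neither passed. The heterodimer U2AF marks the 3′ splice site, its large subunit on the pyrimidine tract and its small subunit on the terminal AG. U2af2, for the large subunit, had 497 copies in Dox+ and 688 in Dox-, 1.42-fold higher (1.26 to 1.59). U2af1, for the small subunit, had 960 and 674, 1.39-fold lower (1.26 to 1.54). The log2 ratio of U2af1 minus that of U2af2 was -0.98, and of the related pairs with intervals apart, only Srsf5 and Srsf6 stood further from each other (-1.06). U2af1l4, a minor paralogue of U2af1, had 93 and 110 copies (log2 0.28, interval -0.13 to 0.69). It shares 738 identical bases with the transcript of Tmem149 on the same strand, so its copies are uncertain.

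The PRPF genes, named after pre-mRNA processing mutants of yeast, had the highest class median, 0.42. Of 13, only 8 had enough copies, none was called, and 5 were higher and none lower at an FDR below 0.05, where 31.6% and 29.1% of all genes were. Prpf8, the scaffold at the catalytic core of U5, had 889 and 1119 copies (log2 0.37, interval 0.24 to 0.50). Prpf19, the ubiquitin ligase of the complex that activates the spliceosome, had 774 and 1031 (log2 0.45), and Prpf6, which bridges U5 with U4/U6, had 279 and 367 (log2 0.43). Prpf4b, a kinase of the tri-snRNP, had 127 and 171 (log2 0.46). Prpf38b was nearest to the threshold, with 358 and 516 copies, 1.48-fold higher (1.29 to 1.69). Its relative Prpf38a, which joins the spliceosome before activation, had 121 and 105 (log2 -0.17), and the intervals of the 2 were apart.

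Prpf31, a U4 protein, was level with 245 and 254 copies (log2 0.09), and Prpf39, a U1-associated factor, had 98 and 128 (log2 0.42, FDR 0.0757 by the Audic-Claverie test). The remaining genes were below the filter, and their ratios have wide intervals. Prpf3 had 99 and 81 copies and Prpf4 43 and 65, both being U4/U6 proteins. Prpf18, of the second step of splicing, had 105 and 81, and the U1-associated Prpf40b had 12 and 10. Summed over Prpf3, Prpf4, Prpf6, Prpf8 and Prpf31, the PRPF genes of the tri-snRNP had 1555 and 1886 copies (log2 0.31, interval 0.22 to 0.41). The U5 genes outside the symbol rule were not uniform, with Eftud2 at 1131 and 894 copies (log2 -0.30), Snrnp200 at 234 and 400 (called higher, log2 0.81) and Snrnp40 at 174 and 209 (log2 0.30). With these the sum was 3094 and 3389 (log2 0.17, interval 0.10 to 0.24).

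Of 31 pairs of paralogues or direct partners, 17 had intervals that did not overlap. The share for pairs of unrelated genes was not computed, and many of the pairs share a gene. Whether related genes differ more or less than other genes is therefore not known. The intervals cover counting error within 1 library per group, and the spread between mice is not known. A pair with intervals apart may still lie within that spread. Pairs with overlapping intervals included Hnrnpa2b1 and Hnrnpa3 (log2 0.48 and 0.50), Hnrnpd and Hnrpdl, Hnrnph1 and Hnrnph2, and U2af2 and U2af1l4. Transcript length and GC content were weakly related to the ratios over the 60 genes, with Spearman coefficients of 0.19 and -0.06 against 0.08 and -0.14 over 6460 genes tested; these are descriptions across genes of the same 2 libraries.

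The other genes of splicing were followed with hand-written lists of 9 groups, whose counts are to be read against 15.2% called higher and 14.7% lower over all genes. SR protein kinases and SR-related factors had 6 of 23 genes called higher and none lower, with a median log2 ratio of 0.32. Tra2a and Tra2b, SR-like activators that bind GAA-rich exonic enhancers, were both called, from 974 to 2050 copies (log2 1.11) and from 1389 to 2165 (log2 0.67). The Dox- library was thus higher for Srsf2, Srsf11 and both Tra2 genes, and lower for Srsf5. Regulators outside the SR and hnRNP symbols had 7 called higher and 2 lower of 41. Among them Raly, an hnRNP C relative, had 1551 and 4431 copies (2.93-fold higher), Dazap1, an RNA-binding splicing regulator, had 76 and 173 (2.33-fold higher), and Khdrbs3, a STAR-family splicing factor, had 443 and 202 (2.14-fold lower). Raly thus exceeded every one of the 60 genes in ratio, while Hnrnpc itself stood at a log2 ratio of 0.08.

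**Figure D4:**
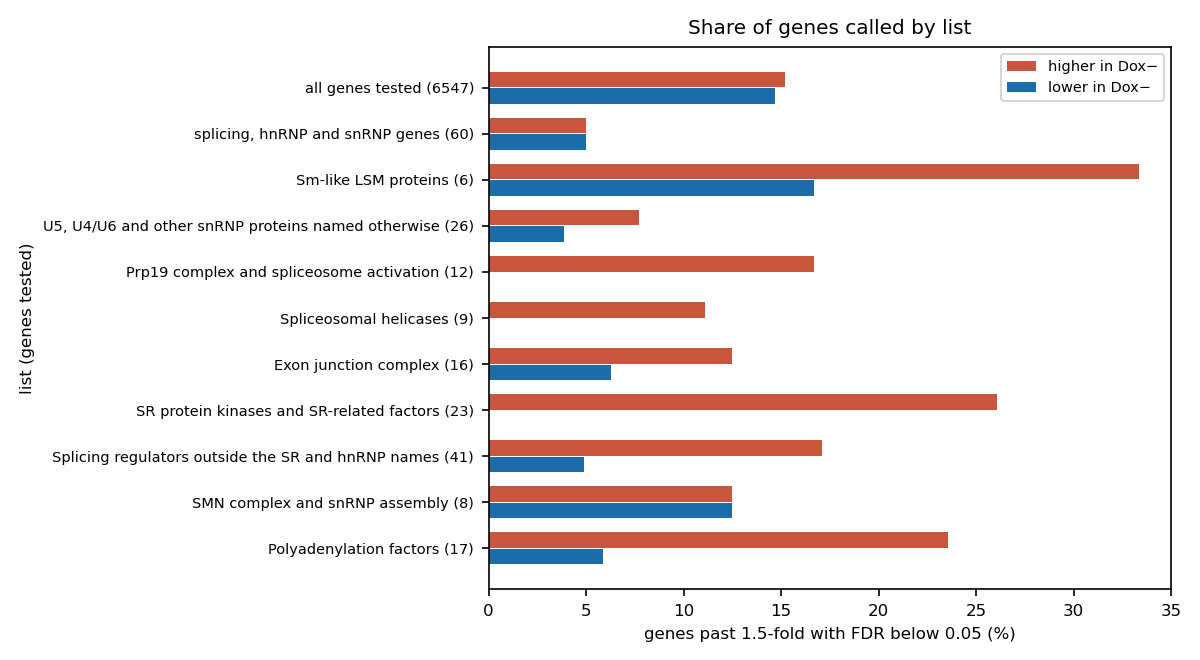
Share of genes (%) called higher and lower in Dox- in all genes tested, in the 60 splicing genes and in 9 lists of other splicing and RNA processing genes, with the number of genes tested in brackets. The splicing genes stand at 3 of 60 in each direction, below the 15.2% and 14.7% of all genes; several lists hold few genes.

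The Sm-like LSM genes, relatives of the Sm genes, had 2 called higher and 1 lower of 6. Lsm4 had 444 and 675 copies (1.56-fold higher), and Lsm1, which is part of the cytoplasmic ring for mRNA decay and not of the spliceosome, had 601 and 279 (2.10-fold lower). The list of the SMN complex, which loads Sm proteins onto snRNA, and of other snRNP assembly genes had 1 called in each direction of 8. They were Strap, with 331 and 528 copies (1.63-fold higher), and Gemin7, with 284 and 128 (2.17-fold lower). Both encode subunits of the SMN complex or proteins bound to it. Polyadenylation factors had 4 called higher and 1 lower of 17, with Pabpn1, the nuclear poly(A)-binding protein, at 986 and 1490 copies (1.55-fold higher). The other snRNP proteins had 2 higher and 1 lower of 26, and the helicases 1 and none of 9. The list of the Prp19 complex and spliceosome activation had 2 higher (Bud31 and Skiv2l2) and none lower of 12. The list headed by the exon junction complex had 2 higher, the cap-binding genes Ncbp1 and Ncbp2, and 1 lower, Acin1, of 16. In that list the core genes Eif4a3, Magoh, Rbm8a and Casc3 were not called.

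Markers of cell types also differed between the libraries, and their counts are to be read against the same shares of all genes, 15.2% higher and 14.7% lower. Genes of dividing cells had 8 of 12 called higher and none lower, and their summed level went from 518 to 842 TPM (copies per 1000000 clean tags). Of all the marker lists, this was the one with the largest share called higher. Smooth muscle markers had 4 of 8 called lower and none higher (6550 to 4512 TPM), and endothelial markers 2 of 4 lower (248 to 174). Epithelial markers had 4 higher and 2 lower of 10 (1282 to 1743), stromal markers 3 higher and 4 lower of 10 (4586 to 5182, with a median log2 ratio of -0.50), and leukocyte markers 1 higher of 4 (155 to 226). The stromal sum was carried by Col6a1 (13371 and 20233 copies), and without it the level went from 2352 to 1720 TPM. Markers of the uterine cell types were thus detected in both libraries. Markers of skeletal muscle, which the uterus does not contain, had 2 of 2 lower (648 to 234). Acta1 held 3385 of their 3881 copies in Dox+, and without Acta1 the sum was 82.9 and 21.7 TPM. Of the 496 copies then left in Dox+, Tnni2, the other gene called lower, held 408 (99 in Dox-). Tnnt3 had 50 copies in Dox+, Ckm 33 and Mylpf 5. No red cell marker had enough copies (11.0 to 35.6). Except for 1 red cell gene in Dox+, no marker was at 0 in either library. The part of these shifts in the ratios of the splicing genes was not tested.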

How the data were processed

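DGE libraries were made from pooled RNA (6 µg) of 3 Dox+ and 3 Dox- uteri at gestation day 2.5, with 1 library per condition. The authors removed adaptor-only, low quality and single-copy tags and assigned unambiguous tags to mouse reference transcripts. The deposited counts are tags per gene without normalization. The deposited TPM values are copies per 1000000 clean tags without a length correction, and from them the clean tags (5985925 and 5844314) were recovered as library sizes. The build mm9 and CASAVA are listed in the submitters' processing notes. The aligner and the restriction enzyme are not given in the sources used here. The labels mention mRNA fragmentation, which differs from tag profiling, and this was not resolved. The authors' own comparison columns (log2 ratio, ratio and its inverse, P-value, FDR, combined copies) were not used.

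Copies were compared as copies per clean tag, without a pseudocount, with the two-sided Audic-Claverie test and Benjamini-Hochberg FDR over 14678 genes. Called genes had an FDR below 0.05, a fold of at least 1.5 and at least 200 combined copies. Counts of 3 or fewer would be set to 3, which no splicing gene needed. With 1 library per condition, edgeR's quasi-likelihood test could not be fitted, and no test of the conditions exists. Alternatives were other scalings, filters, thresholds, Fisher's exact test, a pseudocount of 1, and edgeR with an assumed coefficient of variation of 0.1, 0.2 or 0.4. The test and the intervals were tried on simulated libraries that held counting error only, so the spread between mice was no part of that check.

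Genes were named where called, among the 3 with the most copies of a class, within 10% of the fold threshold, or in a related pair, and the remaining genes for completeness, except 1 that is not reported here. Of the other lists, named genes were those called and among the 3 with the most copies, or with the largest folds. The genes and lists were chosen with earlier results of these data known. Positions, lengths and overlaps are from the GENCODE annotation of NCBIM37, similar transcripts from BLAST 2.17.0 (at least 95% identity over 100 bases) and promoters from RefSeq. Python 3.11.15, numpy 2.4.6, scipy 1.17.1, pandas 2.3.3, matplotlib 3.10.9, R 4.3.3 and edgeR 4.0.16 were used.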

Additional observations from a re-analysis of the deposited data

How the results depend on the processing

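The counts of called splicing genes, 3 higher and 3 lower, moved with the fold threshold. With an absolute log2 ratio above 0.5 in place of 1.5-fold there were 7 higher and 6 lower of 60. Over all 6547 genes tested, that threshold gave 1231 higher and 1168 lower. With a fold of at least 2 there were 0 of each, beside 302 and 368 over all genes tested. The sum of the gene counts as library size gave 5 higher and 2 lower, adding Prpf38b and Sf3b4 and losing Snrpf. Median-of-ratios scaling gave 2 higher and 5 lower, losing Hnrnph1 and adding Snrpd2 and Srsf4. TMM scaling added Snrpd2 to the lower genes, which were then 4. Over all genes tested, the sum of the gene counts gave 1099 higher and 895 lower. Median-of-ratios scaling gave 906 and 1042, and TMM scaling 925 and 1020. In edgeR's exact test with an assumed coefficient of variation of 0.2 or of 0.4, there were 0 higher and 0 lower, while 0.1 kept all 6 calls. Over all genes tested, 0.1 left 864 higher and 851 lower, 0.2 left 147 and 174, and 0.4 left 16 and 17. Fisher's exact test, an FDR below 0.001, other copy number filters and a pseudocount of 1 changed no call among the 60 genes. The medians of the whole set and of the 5 classes kept their sign under each scaling and filter, with 0.12 to 0.20 for the whole set. The sign of Srsf1 and Snrpd1 turned under TMM and median-of-ratios scaling and that of Hnrnpab and Sf3a3 under the sum of the gene counts, none of them called. The scalings moved the median of all genes by less than 0.1 on the log2 scale.

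No paired analysis was possible because each group had 1 library, which also left no replicate to leave out. Counting error put the intervals of the splicing genes at a median of 0.15 (log2) to either side, the spread between mice is unknown, and differences near 1.5-fold depend on it.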
